A study of Mus musculus with 7 samples.

Results

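Muc13 and 8 other genes for mucins and sialomucins of blood cells were followed by RNA-seq in mouse LT-HSCs. These long-term haematopoietic stem cells of the marrow are able to rebuild every blood lineage. The genes were taken by name: Muc13, Muc1, Muc20, Cd34, Podxl, Spn, Cd164, Selplg and Emcn. They are 9 of 34932 genes and carry 31 of 111787 annotated transcripts. The 4 libraries labelled KO came from mice with a full knockout of B4galt1, written B4-/-, on a 129S1/C57Bl/6 background. The 3 libraries labelled WT came from 129S1/C57Bl/6 mice without it. In both groups the cells were flushed from tibia and femur, and the gate kept CD150+ CD48- cells among lineage-depleted marrow cells positive for Sca-1 and c-Kit. The labels give no age, and they do not say whether a replicate is 1 animal or a pool. The p-values therefore measure the spread between these samples, part of which may be technical. The study's title names glycosylation, the megakaryocytic fate of stem cells and a Wnt and Muc13 signal, and the comparison of KO with WT libraries addresses that question at the level of RNA.

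A mucin is a glycoprotein with long stretches rich in serine and threonine that carry dense O-linked sugar chains, and in a sialomucin many of these chains end in sialic acid. The sugar coat stiffens and extends the protein. On blood cells such proteins keep cells apart, carry ligands for selectins and help progenitors stay in or leave the marrow. The enzyme encoded by B4galt1 attaches galactose to N-linked chains and to some O-linked branches, a step that precedes capping by sialic acid. RNA levels do not show how the proteins were glycosylated.

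Depth ran from 23508985 to 34941390 estimated reads per library, and KO replicate 4 was the deepest. B4galt1 itself was at 19.3, 14.9, 14.8 and 14.6 CPM (reads as a share of the scaled library total) across KO replicates 1 to 4, against 19.2, 24.4 and 11.3 CPM across WT replicates 1 to 3. The groups overlapped, so every direction given here rests on the labels alone. The 11 markers fixed for HSCs were all detected and summed to 1062 to 1269 CPM in the libraries labelled KO, against 1389 to 1696 CPM in WT. Of these 11, 1 was lower in edgeR, Mllt3, where 2.26% of all tested genes were called in either direction. Before adjustment (p below 0.05) 5 were lower and 0 higher, and DESeq2 and limma voom each called 3 lower. Slamf1, which encodes CD150, was at 67.8 to 112.0 CPM in the libraries labelled KO and 72.5 to 128.4 CPM in WT. Lymphoid markers summed to 3.14 to 6.97 CPM in the libraries labelled KO and 1.73 to 3.14 CPM in WT, with the B cell factor Pax5 and the natural killer receptor Ncr1 listed at 0 in all 7. Sums were 605.2 to 760.7 CPM in KO and 761.5 to 888.8 CPM in WT for granulocyte and monocyte markers, and 113.0 to 179.6 CPM in KO and 105.8 to 133.1 CPM in WT for stromal and epithelial markers. Of 9 tested granulocyte and monocyte markers 1 was higher and 1 lower in edgeR, and 3 were higher and 3 lower before adjustment (p below 0.05). DESeq2 called 3 higher and 3 lower, and limma voom 3 higher and 2 lower. In edgeR 0 of 4 lymphoid and 0 of 5 stromal and epithelial markers passed, while before adjustment (p below 0.05) 2 and 1 of them were higher and with DESeq2 1 of each list, with 0 by limma voom. A count of 0 allows up to 3 reads, or 0.0859 to 0.128 CPM, for counting error only. KO replicate 4 and WT replicate 3 lacked the expression of Y-linked genes that the other 5 libraries had. In bulk samples, fewer cells of a type and less RNA per cell cannot be told apart.

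The annotation shows what these proteins share in composition. Translated from the coding sequence of the main transcript, serine and threonine made up 30.7% of the 573 residues of Muc13, 34.9% in Muc1 and 35.2% in Muc20. The share was 24.3% in Cd34, 27.6% in Podxl, 29.4% in Spn, 26.9% in Cd164, 22.8% in Selplg and 28.2% in Emcn, against a median of 13.3% over 20900 coding genes. All 9 thus lay at or above the 99th percentile, in a property that also underlies the name mucin. The stretch of 100 residues richest in serine, threonine and proline ran from residue 18 to 117 in Muc13, with 69% of these residues, the highest share of the 9 genes. It was lowest in Cd164, at 45%, against a median of 26% over all coding genes. Motifs for N-linked chains, written N-X-S/T with X not proline, differed more. Muc13 had 3, Selplg 3, Emcn 3 and Spn 2, while Cd34 had 10 in 382 residues, Podxl 10 in 503, Cd164 9 in 197, Muc1 11 in 631 and Muc20 6 in 656. Per 100 residues this is 0.524 in Muc13, 2.62 in Cd34 and 4.57 in Cd164, beside a median of 0.454. A motif is a possible site and does not show that a chain is attached.

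Muc13 has 2 annotated starts, and the bases in front of each are shown because the study's title joins this gene to Wnt signalling, whose nuclear factors of the TCF/LEF family bind a core written CTTTGA or CTTTGT. Both sequences come from RefSeq promoter windows of build GRCm38.p6, on the plus strand of chromosome 16. Capitals mark matches to that core, searched on both strands. The transcript Muc13-202 starts at position 33794037, and the 250 bases before it (chr16:33793787-33794036) held no match to any of 4 motifs searched.
Muc13-202 upstream: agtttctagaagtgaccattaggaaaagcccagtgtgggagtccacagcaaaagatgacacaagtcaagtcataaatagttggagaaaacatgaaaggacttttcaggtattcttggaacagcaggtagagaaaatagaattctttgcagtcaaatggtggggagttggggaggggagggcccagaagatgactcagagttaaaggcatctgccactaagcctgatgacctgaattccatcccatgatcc
The main transcript, Muc13-201, starts 330 bases further downstream at position 33794367, and the 128 bases before it (chr16:33794239-33794366) are these.
Muc13-201 upstream: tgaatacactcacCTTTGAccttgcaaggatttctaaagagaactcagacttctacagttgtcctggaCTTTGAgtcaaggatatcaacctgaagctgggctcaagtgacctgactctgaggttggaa
This stretch holds the core CTTTGA at 115 and at 60 bases before the start of Muc13-201. Among all 32851 RefSeq windows of 300 bases, 31.2% held at least 1 TCF/LEF core and 6.68% held at least 2, so the match describes the letters and is no evidence of binding. The other motifs searched, also on both strands, were AGATAA for GATA factors, TGTGGT for RUNX factors and CCGGAAG for ETS factors, which 11.2%, 16.8% and 8.86% of all windows held. Windows were found for 7 of the 9 genes. Outside Muc13, the only match among them was 1 RUNX core in front of Muc20. Podxl and Selplg had no window in the table.

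Of the 9 genes, 8 passed the filter on low counts and were tested, and Muc20 did not. The edgeR quasi-likelihood test called 0 of the 8 higher and 0 lower at an adjusted p below 0.05, where 2.26% of all 14695 tested genes were called in either direction and 0.599% higher in the libraries labelled KO. Before adjustment (p below 0.05), 3 of the 8 were higher, namely Muc13, Cd34 and Selplg, and 0 lower, against 7.42% higher among all tested genes. DESeq2 called 3 of the 8 higher, the same genes, where it called 2.4% of all genes higher. The limma voom test called 2, Muc13 and Cd34, where it called 1.83% higher. In CPM all libraries labelled KO lay above all WT libraries for 2 of the 8, Muc13 and Cd34, as they did for 8.23% of all tested genes. The median log2 fold change, KO minus WT, was 0.55 over the 8 genes and 0.03 over all tested genes.

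**Figure D1:**
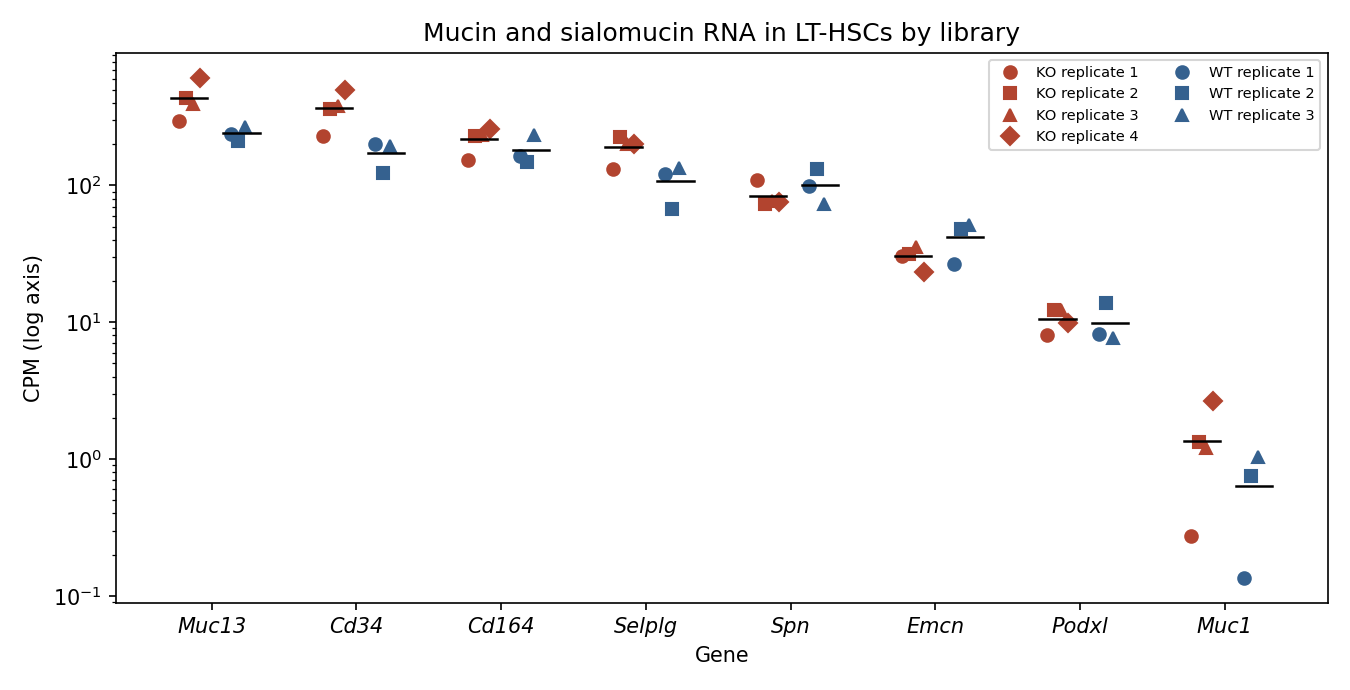
Level of each tested gene in CPM on a log axis, with 1 point per library, KO (red) left of WT (blue), and a line at the group mean. Muc13 and Cd34 have every KO point above every WT point, and the other 6 genes overlap.

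Muc13 encodes a transmembrane mucin known mainly from the gut lining, with a shed extracellular domain and a short cytoplasmic tail, and is also found on blood progenitors. The gene (ENSMUSG00000022824) lies on chromosome 16 at 33794037 to 33819934, plus strand, in GRCm38. Its level was 295.2, 437.7, 396.6 and 609.4 CPM across KO replicates 1 to 4, against 238.4, 211.9 and 268.2 CPM across WT replicates 1 to 3. The WT libraries lay close together, while those labelled KO spread widely, with replicate 4 the highest and replicate 1 the lowest. The libraries labelled KO averaged 434.7 ± 131 CPM (SD, n = 4), and those labelled WT 239.5 ± 28.2 CPM (SD, n = 3). The fitted ratio was 1.82-fold, a log2 fold change of 0.86 (SE 0.232, 95% interval 0.35 to 1.37), and it did not pass after adjustment (edgeR adjusted p = 0.0998). It passed in 4 of the 19 settings tried, among them DESeq2 and the fit without KO replicate 1 (0.99, edgeR adjusted p = 0.0437). Over all of them the log2 fold change stayed between 0.64 and 0.99.

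Of the other 2 mucins of the epithelial kind, Muc1 was low and Muc20 close to or under the limit of detection. Muc1, the classical epithelial mucin with a signalling cytoplasmic tail, had 7, 36, 33 and 98 reads across KO replicates 1 to 4, or 0.273, 1.33, 1.21 and 2.65 CPM. Across WT replicates 1 to 3 it had 4, 16 and 24 reads, or 0.136, 0.750 and 1.03 CPM. Replicate 1 was the lowest library of each group, and the groups overlapped. The log2 fold change of 1.11 had an interval from -0.74 to 2.95 (edgeR adjusted p = 0.566), so at this depth neither a large increase nor a decrease could be told apart from no difference. Muc20, a kidney mucin whose human form binds the receptor MET, had 2 reads in KO replicate 2, 1 read in WT replicate 3 and 0 in the other 5 libraries. Like Muc13 it lies on chromosome 16, 996602 bases upstream.

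Cd34 encodes the sialomucin that marks progenitors and blood vessels, and adult mouse LT-HSCs are known for carrying little of it on their surface. Its RNA was at 228.0, 361.8, 378.8 and 499.6 CPM across KO replicates 1 to 4, against 201.1, 123.2 and 193.1 CPM across WT replicates 1 to 3. The groups did not overlap, though the gap between KO replicate 1 and WT replicate 1 was small. The libraries labelled KO averaged 367.0 ± 111.2 CPM (SD, n = 4), and those labelled WT 172.5 ± 42.8 CPM (SD, n = 3). This was the largest fitted ratio among the abundant genes of the group, 2.13-fold, with a log2 fold change of 1.09 (SE 0.269, 95% interval 0.50 to 1.68, edgeR adjusted p = 0.0715). It passed in 5 of 19 settings, among them DESeq2, limma voom and the fit without KO replicate 1 (1.24, edgeR adjusted p = 0.0244). Podxl, the podocalyxin gene and the nearest relative of Cd34, was at 8.08, 12.3, 12.3 and 9.89 CPM across KO replicates 1 to 4 and at 8.15, 13.8 and 7.63 CPM across WT replicates 1 to 3. Its groups covered the same range, with a log2 fold change of 0.11 (SE 0.293, 95% interval -0.54 to 0.76, edgeR adjusted p = 0.883).

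Beside these values, 1 gene of the list for early progenitors was higher in edgeR. Cd48, whose protein was used to exclude cells at sorting, was at 105.3, 126.0, 141.8 and 129.7 CPM across KO replicates 1 to 4, against 25.2, 14.0 and 32.3 CPM across WT replicates 1 to 3. It was the 1 gene called of the 5 progenitor markers, with a log2 fold change of 2.40 (SE 0.269, edgeR adjusted p = 0.000804). The 5 markers (Cd48, Flt3, Cd27, Mki67 and Cd38) summed to 484.2 to 526.4 CPM in the libraries labelled KO and 359.2 to 379.1 CPM in WT. Flt3, a receptor of multipotent progenitors, was at 1.15 (edgeR adjusted p = 0.124) and Cd27 at 0.41 (edgeR adjusted p = 0.359). The other 2 of the list had negative values, the proliferation marker Mki67 at -0.09 and Cd38 at -0.71 (edgeR adjusted p = 0.374 for Cd38). Neither is particular to progenitors, and mouse HSCs carry Cd38 too. Their direction is therefore not read as that of progenitor markers. Megakaryocyte and platelet markers ran the other way, with 12 of 13 lower, where 2.26% of all tested genes were called in either direction. These markers summed to 1225 to 2378 CPM in the libraries labelled KO against 6119 to 13238 CPM in WT. Whether a different mix of cells had a part in the values of Cd34, Muc13 and Selplg was not tested.

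Among the sialomucins of leukocytes, Selplg encodes PSGL-1, the main ligand for P-selectin on leukocytes and progenitors. It was at 131.3, 225.2, 199.4 and 201.3 CPM across KO replicates 1 to 4, against 120.7, 66.7 and 133.2 CPM across WT replicates 1 to 3. Only WT replicate 3 reached into the KO range, and it stood just above KO replicate 1. The mean was 189.3 ± 40.4 CPM under the KO label (SD, n = 4) and 106.9 ± 35.3 CPM in WT (SD, n = 3). The log2 fold change of 0.82 (SE 0.260, 95% interval 0.25 to 1.40) did not pass (edgeR adjusted p = 0.160).

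Spn encodes CD43 or leukosialin, an abundant sialomucin that lowers adhesion between leukocytes. Its level was 109.0, 73.6, 76.6 and 75.5 CPM across KO replicates 1 to 4 and 99.6, 131.1 and 73.7 CPM across WT replicates 1 to 3. KO replicate 1 stood above the other 3, within the WT range. The log2 fold change was -0.28 (SE 0.220, 95% interval -0.77 to 0.21, edgeR adjusted p = 0.586). Cd164 encodes endolyn, a small sialomucin that takes part in the adhesion and homing of progenitors. It was at 152.4, 231.2, 234.5 and 260.1 CPM across KO replicates 1 to 4 and at 164.5, 148.9 and 232.7 CPM across WT replicates 1 to 3. The groups overlapped widely, with a log2 fold change of 0.27 (SE 0.220, 95% interval -0.22 to 0.76, edgeR adjusted p = 0.599). Emcn encodes endomucin, a sialomucin of venous and capillary endothelium that is also found on HSCs. It was at 30.7, 31.6, 35.4 and 23.4 CPM across KO replicates 1 to 4, against 26.7, 48.2 and 51.2 CPM across WT replicates 1 to 3. WT replicate 1 fell within the KO range, and the log2 fold change of -0.47 (SE 0.245, 95% interval -1.01 to 0.07) did not pass (edgeR adjusted p = 0.411). Of the endothelial markers 7 were tested, and 0 passed in edgeR, 1 being lower before adjustment (p below 0.05) and 1 lower with DESeq2 and with limma voom. They summed to 88.7 to 133.0 CPM in the libraries labelled KO and 112.3 to 122.1 CPM in WT, with Cdh5, the endothelial cadherin, at 0 in all 7 libraries. Their part in the values of Emcn was not tested.

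**Figure D2:**
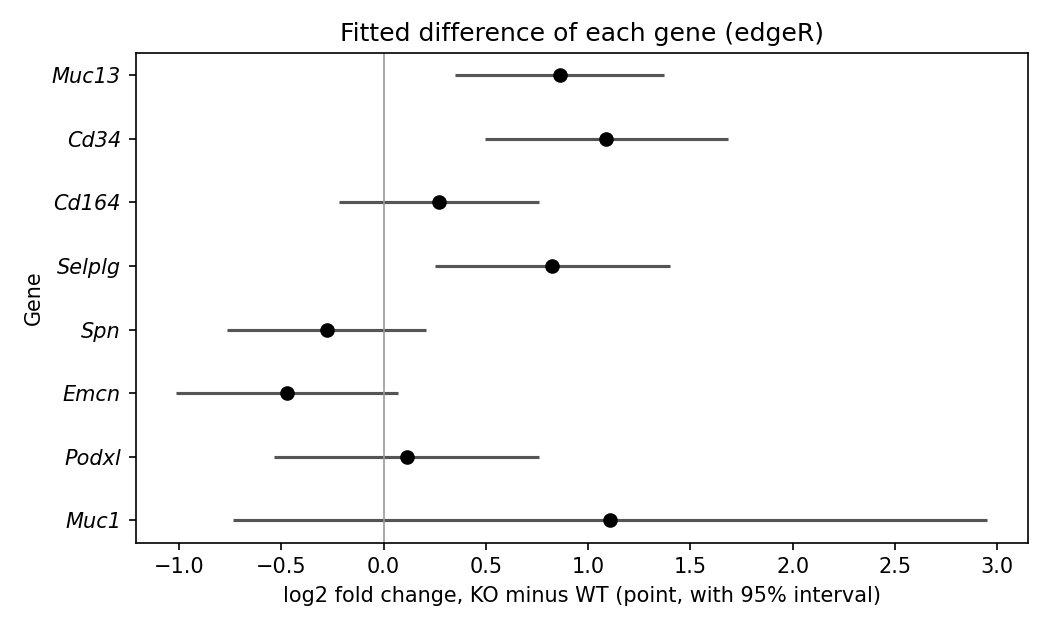
Fitted log2 fold change, KO minus WT, of the 8 tested genes from edgeR, with the 95% interval as a line. The intervals of Muc13, Cd34 and Selplg lie above 0 and the other 5 include 0. None passed at an adjusted p below 0.05.

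The genes were placed in order by TPM, which allows for transcript length. In the libraries labelled KO the mean levels were 167.7 TPM for Cd34, 162.5 for Muc13, 147.6 for Selplg, 84.5 for Cd164, 32.7 for Spn, 21.1 for Emcn, 2.18 for Podxl, 1.75 for Muc1 and 0.0084 for Muc20. In WT they were 78.7 TPM for Selplg, 76.8 for Muc13, 68.3 for Cd34, 59.1 for Cd164, 31.2 for Spn, 26.0 for Emcn, 1.71 for Podxl, 0.858 for Muc1 and 0.0066 for Muc20. The 3 leading genes did not separate within either group. Cd34 exceeded Muc13 in 2 of the 4 libraries labelled KO, and Muc13 exceeded Selplg in 2 of 4. In WT each of these neighbours held its place in 2 of 3 libraries, as did Cd34 over Cd164, Spn over Emcn and Podxl over Muc1. In the libraries labelled KO, Selplg lay above Cd164, Cd164 above Spn, Spn above Emcn and Emcn above Podxl in 4 of 4. Averaged over all 7 libraries, Muc13 was at the 90.6th percentile of tested genes, Cd34 at the same and Selplg at the 90.1st, while Podxl was at the 25.4th and Muc1 lower still.

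The summed TPM of the 9 genes was 408.6, 598.7, 611.1 and 861.9 across KO replicates 1 to 4, against 355.9, 250.0 and 422.0 across WT replicates 1 to 3. WT replicate 3 was above KO replicate 1, so the groups overlapped. Muc13 made up 24.8%, 25.2%, 23.5% and 29.5% of this sum across KO replicates 1 to 4 and 22.2%, 23.5% and 22.0% across WT replicates 1 to 3. In CPM, KO replicate 1 was the lowest library of its group for Muc13, Muc1, Cd34, Podxl, Cd164 and Selplg and the highest for Spn. On the same scale, KO replicate 4 was the highest for Muc13, Muc1, Cd34 and Cd164 and the lowest for Emcn. In TPM, KO replicate 4 was also the highest for Selplg and Spn and KO replicate 1 the lowest for Emcn. Within WT, replicate 2 was, in CPM, the lowest for Muc13, Cd34, Cd164 and Selplg and the highest for Spn and Podxl. Summed erythroid markers also set replicate 1 of each group apart, at 1778, 593.3, 469.9 and 327.9 CPM across KO replicates 1 to 4, against 1150, 386.6 and 233.8 CPM across WT replicates 1 to 3. Of these sums Car1 alone held 1462 CPM in KO replicate 1 and 808.4 CPM in WT replicate 1. Hbb-bt ran the other way within KO, at 26.0 CPM in replicate 1, the lowest of the group. Between the groups 0 of the 10 erythroid markers passed in edgeR or DESeq2, 3 were higher and 2 lower before adjustment (p below 0.05), and limma voom called 1 higher and 2 lower. The part of these cells in the order of libraries was not tested. In the 5 libraries with male-pattern expression, 3 labelled KO and 2 WT, the log2 fold change was 0.75 for Muc13, 1.00 for Cd34 and 0.99 for Selplg (edgeR adjusted p = 0.106, 0.126 and 0.157). The other 2 libraries, 1 in each group, allow no test of their own.

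**Figure D3:**
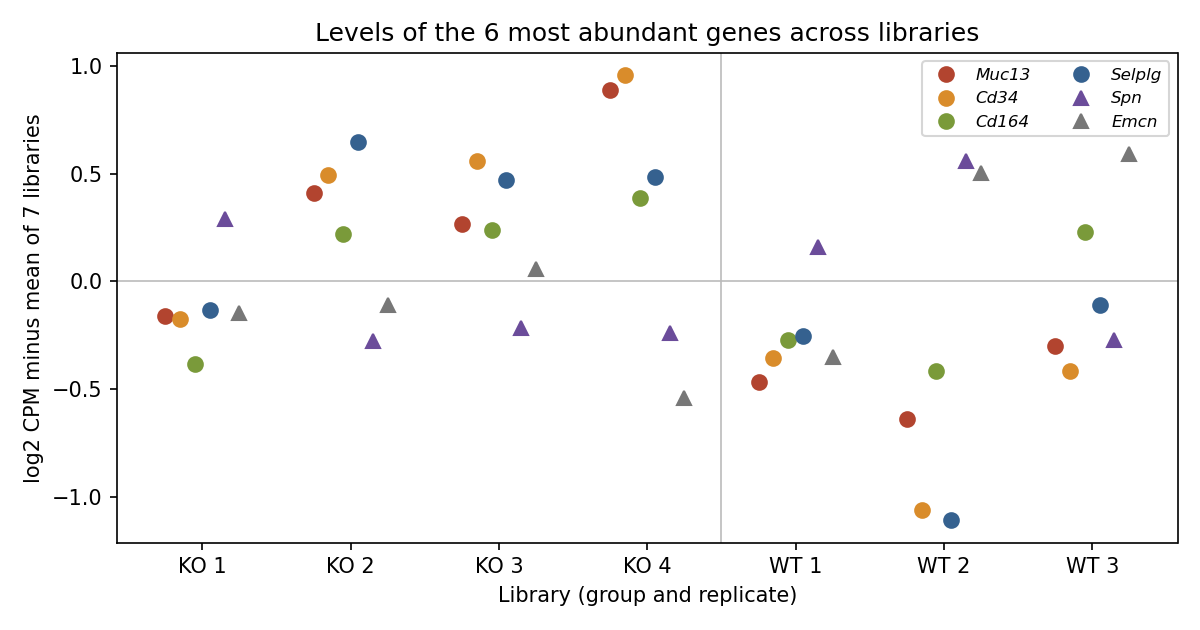
Level of the 6 most abundant genes in each library as log2 CPM minus that gene's mean over 7 libraries, with KO libraries left of WT libraries. Circles are Muc13, Cd34, Cd164 and Selplg, each lowest of its group in KO replicate 1 and in WT replicate 2, and triangles are Spn and Emcn. Spn is high in those same libraries.

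Reads were next divided by transcript, as Salmon estimated them. Of the 31 annotated transcripts, 21 were tested, and edgeR called 0 higher and 0 lower, where 0.425% of all 40219 tested transcripts were called. Before adjustment (p below 0.05), 5 of the 21 were higher (Muc13-201, Cd34-201, Cd34-202, Cd34-204 and Selplg-201) and 1 lower (Emcn-201), against 6.88% higher and 5.22% lower among all tested transcripts. Other tools were not run on transcripts. The files hold no resampled estimates, so the error of dividing reads among transcripts is not part of this test.

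Muc13-201, with 2942 bases, carried 91.3 ± 1.82% of the reads of Muc13 in the libraries labelled KO (SD, n = 4) and 93.8 ± 4.07% in WT (SD, n = 3). Muc13-202, from the upstream start, carried 9.30%, 10.9%, 6.63% and 8.12% across KO replicates 1 to 4 and 5.86%, 2.34% and 10.5% across WT replicates 1 to 3. Its share varied more within WT than within the libraries labelled KO. Both transcripts code for the same 573 residues, so the choice of start does not alter the protein. Muc13-201 had 6861, 10549, 10126 and 20728 estimated reads across KO replicates 1 to 4, against 6606, 4418 and 5571 across WT replicates 1 to 3 (log2 fold change 0.73, edgeR adjusted p = 0.307). Muc13-202 had 703.2, 1293, 718.9 and 1831 reads across KO replicates 1 to 4, against 411.1, 106.0 and 650.3 across WT replicates 1 to 3 (1.17, adjusted p = 0.458).

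Cd34 is made in a long and a short form that differ in the cytoplasmic tail. The annotated transcripts Cd34-201 and Cd34-202 join exon 7 to different starts of exon 8, and 15 bases on each side of the junction are shown because they set the length of the tail. Lower case is exon 7 and capitals are exon 8, on the plus strand of chromosome 1 in GRCm38.
Cd34-201 junction: acaggagaaaggctgGGTGAAGACCCTTAT
Cd34-202 junction: acaggagaaaggctgGAGCTGGAACCTTGA
In Cd34-202 exon 8 begins 156 bases further upstream, and the reading frame meets a stop codon, TGA, at the end of the bases shown. The first 321 residues are shared, after which Cd34-201 codes for 61 more residues and Cd34-202 for 4. The long form, Cd34-201, carried 77.8 ± 3.75% of the gene's reads in the libraries labelled KO (SD, n = 4) and 80.1 ± 2.39% in WT (SD, n = 3). The short form carried 13.6%, 24.9%, 17.6% and 21.5% across KO replicates 1 to 4 and 21.8%, 17.1% and 16.9% across WT replicates 1 to 3, and the groups overlapped. Cd34-201 had a log2 fold change of 0.95 and Cd34-202 of 1.08 (edgeR adjusted p = 0.251 and 0.388).

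Emcn-201, the main transcript of Emcn, carried 58.0%, 65.7%, 63.6% and 60.8% of the reads across KO replicates 1 to 4, against 67.4%, 67.4% and 72.1% across WT replicates 1 to 3, without overlap in the share of estimated reads. In the share of TPM, which allows for transcript length, the groups overlapped, at 75.0%, 80.0%, 76.0% and 61.4% across KO replicates 1 to 4 and 81.2%, 81.7% and 77.9% across WT replicates 1 to 3. The difference of -6.93 points in the share of reads gave p = 0.0571 in a two-sided exact permutation test, the smallest that the 35 splits of 4 against 3 libraries allow, and 0.400 after adjustment over the 7 genes tested. The next transcript, Emcn-202, has the extra exon 5 of 39 bases (chr3:137403984-137404022, plus strand, GRCm38), shown because it adds 13 residues to the protein.
Emcn-202 exon 5: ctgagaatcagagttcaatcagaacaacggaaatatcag
Emcn-202 carried 28.8 ± 1.43% of the reads in the libraries labelled KO (SD, n = 4) and 26.6 ± 3.11% in WT (SD, n = 3). The remaining reads lay on Emcn-203, a retained intron form, and Emcn-204. For the other genes the main transcript's share was 84.9 ± 3.67% in KO and 88.6 ± 1.62% in WT for Spn-201, 94.6 ± 2.13% and 92.0 ± 4.79% for Selplg-201, and 99.7 ± 0.159% and 99.8 ± 0.161% for Cd164-201. Muc1-201 held 66.7 ± 17.9% in KO and 69.8 ± 26.8% in WT, on few reads. In the share of TPM it held a mean of 28.0% in KO and 43.8% in WT. There Muc1-202, a transcript of 476 bases not annotated as coding, held 72.0% in KO and 56.2% in WT. The TPM of Muc1 given above thus came in large part from Muc1-202. All reads of Podxl lay on Podxl-201. None of the 7 shares passed the exact permutation test, which could not reach 0.05 in this design.

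**Figure D4:**
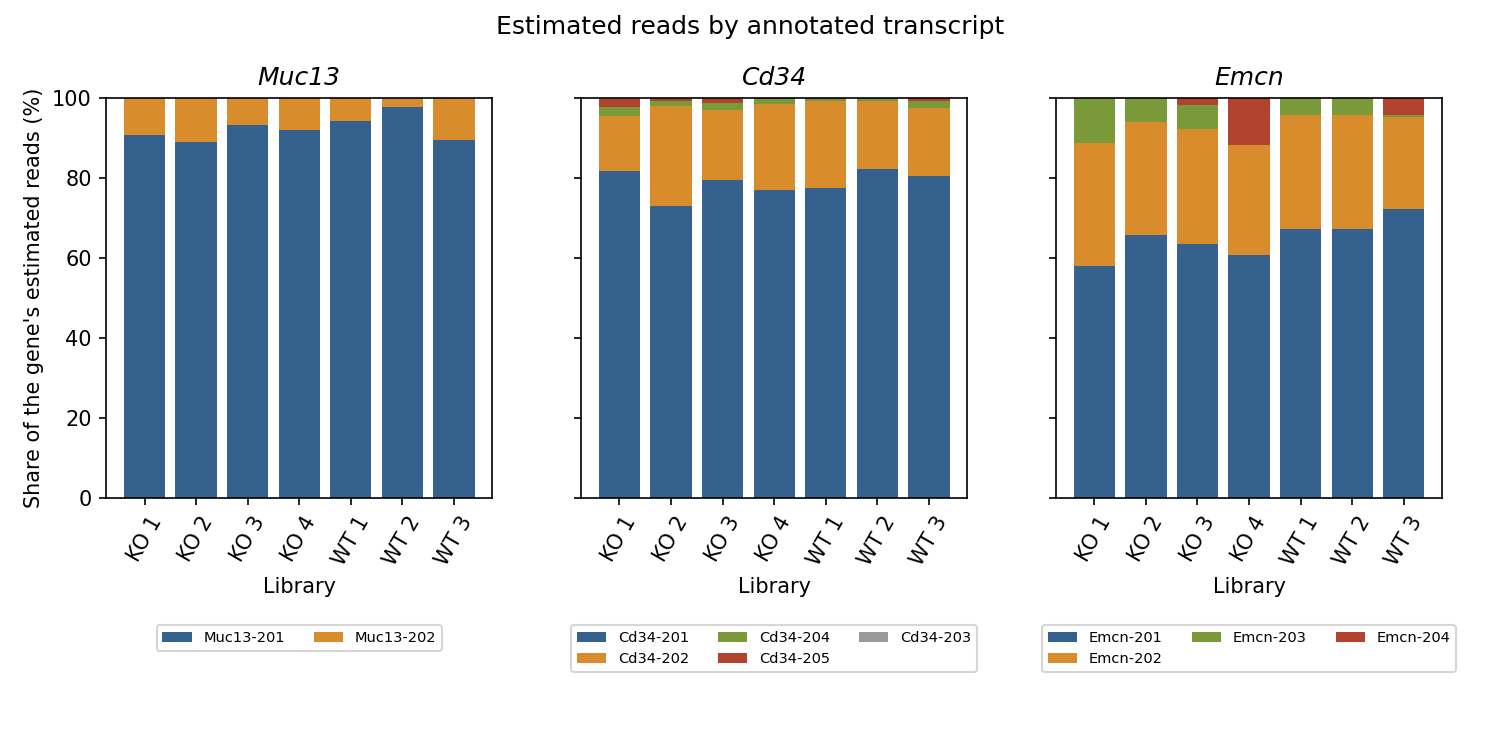
Share of each gene's estimated reads by annotated transcript, in percent, for Muc13, Cd34 and Emcn, with 1 bar per library and KO left of WT. Muc13-201 and Cd34-201 hold most reads in all 7 libraries, and the Emcn-201 share is 58.0% to 65.7% in KO and 67.4% to 72.1% in WT.

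Genes around Muc13 on chromosome 16 were read from the same fit. Of the genes in the count table, 22 others lie within 1 Mb, of which 17 were tested. Under the KO label 2 of them were lower and 0 higher, where 2.26% of all 14695 tested genes were called in either direction and 0.599% higher. Both DESeq2 and limma voom called 3 lower, while over all genes they called 866 and 708 in either direction, 40.6% and 38.0% of them higher. The next protein-coding gene downstream on the same strand, Itgb5, starts 9731 bases past the end of Muc13 and encodes an integrin subunit that pairs with the alpha V chain. It was at 0.468, 0.296, 0.951 and 0.729 CPM across KO replicates 1 to 4, against 23.2, 16.6 and 13.4 CPM across WT replicates 1 to 3. Its log2 fold change of -4.84 (SE 0.414, edgeR adjusted p = 0.000127) passed in 19 of 19 settings and was -5.70 with an offset for transcript length. Mylk, the myosin light chain kinase gene, 925276 bases downstream, was at 7.49, 7.43, 13.0 and 4.30 CPM across KO replicates 1 to 4, against 60.7, 71.7 and 58.2 CPM across WT replicates 1 to 3 (-2.98, edgeR adjusted p = 0.000564).

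The other tested neighbours did not pass in edgeR. Heg1, 22461 bases upstream, encodes a mucin-like endothelial receptor and had 80.8, 84.4, 80.2 and 72.8 CPM across KO replicates 1 to 4, against 68.2, 101.2 and 69.8 CPM across WT replicates 1 to 3. Its log2 fold change was -0.0031 (95% interval -0.39 to 0.38). Umps, an enzyme of pyrimidine synthesis, was at 0.20 and Kalrn, a nucleotide exchange factor, at -1.30 (edgeR adjusted p = 0.142). An antisense gene, Gm15657, overlaps 2838 bases of Muc13 at its 5' end on the minus strand. The library kit does not mark strand, so reads there could come from either gene. It is not among the genes counted above, and its own level was not analysed here.

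**Figure D5:**
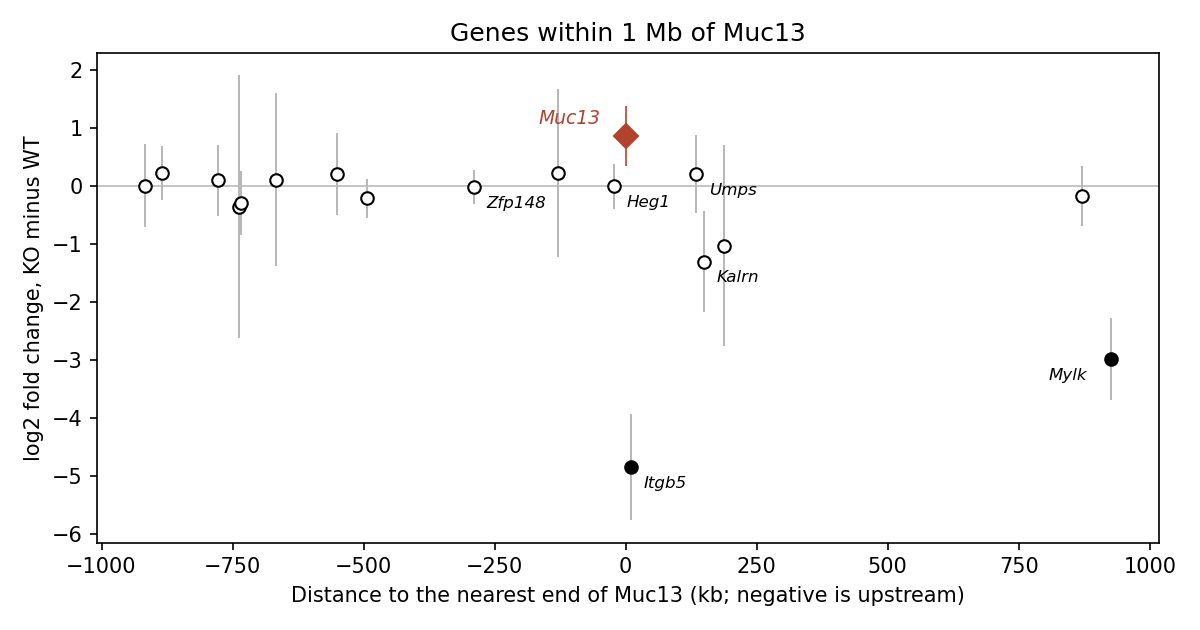
Fitted log2 fold change, KO minus WT, with its 95% interval, of the tested genes within 1 Mb of Muc13, by distance in kb to the nearest end of Muc13. Filled circles passed at an edgeR adjusted p below 0.05 (Itgb5 and Mylk, both lower), open circles did not, and the diamond is Muc13.

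The genes whose level was most like that of Muc13 over the 7 libraries were Fut8, Cwf19l1, Pim1, Ccdc125 and Proser3, out of 11285 genes with a mean log2 CPM of at least 1. Fut8 encodes the enzyme that adds core fucose to N-linked chains, and its Pearson r with Muc13 was 0.996 in log2 CPM. It was at 198.6, 331.6, 283.7 and 528.0 CPM across KO replicates 1 to 4, against 132.6, 129.7 and 159.4 CPM across WT replicates 1 to 3, in the same order of libraries as Muc13 within KO. The log2 fold change of Fut8 was 1.26 (edgeR adjusted p = 0.0543), and it passed in 10 of 19 settings. Within groups, after the group means were taken off, its r was 0.989. Cwf19l1 had an r of 0.990, Pim1, a kinase induced by cytokines, 0.989, and Ccdc125 and Proser3 0.988 each. Such values describe 7 libraries whose depth and marker sums also differ, and they are the highest of many.

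Among the sialomucins, the r with Muc13 was 0.965 for Cd34, 0.863 for Selplg, 0.794 for Cd164, 0.731 for Muc1, 0.172 for Podxl, -0.599 for Emcn and -0.712 for Spn. With group means taken off it was 0.899 for Cd34, 0.652 for Selplg, 0.848 for Cd164 and -0.706 for Spn. In log2 CPM, Cd34 and Muc13 thus varied together also within groups, with both groups pooled, and Spn ran the other way. The r of Cd34 was not ranked among the 11285 genes. In TPM, KO replicate 4 was the highest of its group for both Muc13 (254.4) and Spn (39.0). The opposite run of Spn thus did not hold for that library in TPM.

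Genes around the mucins were read from lists of their partners. Of 13 other mucin genes in the table, 1 was tested, Muc3a, at -0.03 (edgeR adjusted p = 0.990), and Muc16, Muc3 and Muc4 were listed at 0 in all libraries. Muc3 and Muc3a are close copies, and Salmon may have placed the reads of one on the other. Among 13 tested sialomucin-like glycoproteins, 2 were higher and 4 lower before adjustment (p below 0.05). DESeq2 called 1 higher and 3 lower, and limma voom 1 higher and 2 lower. In edgeR 1 was lower and 0 higher, where 2.26% of all tested genes were called in either direction. This was Gp1ba, a chain of the platelet receptor for von Willebrand factor that is also counted with the megakaryocyte markers, at 8.63, 15.0, 10.1 and 22.6 CPM across KO replicates 1 to 4 and 46.2, 49.2 and 34.3 CPM across WT replicates 1 to 3. Its log2 fold change was -1.61 (edgeR adjusted p = 0.0246), and the call was lost without KO replicate 2 (-1.64), KO replicate 3 (-1.49), WT replicate 1 (-1.58) or WT replicate 2 (-1.54). The list's median was 0.10.

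Selectins, galectins and other partners outside the cell numbered 9 tested genes. The edgeR test called 0, and before adjustment (p below 0.05) 3 were higher and 0 lower. The calls of DESeq2 were 1 higher, and those of limma voom 3 higher. Their median log2 fold change was 0.41. The smallest p was that of Lgals3, a galectin that binds galactose-containing chains, at 8.63, 6.36, 12.3 and 3.21 CPM across KO replicates 1 to 4, against 2.51, 1.83 and 1.51 CPM across WT replicates 1 to 3 (1.96, edgeR adjusted p = 0.0645). It passed in 7 of 19 settings.

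Among 13 cytoplasmic partners, 1 was lower and 0 higher. Src, the tyrosine kinase that phosphorylates the tail of MUC1 in human cells, was at 2.11, 2.11, 1.72 and 0.810 CPM across KO replicates 1 to 4, against 5.74, 13.5 and 5.73 CPM across WT replicates 1 to 3 (-2.30, edgeR adjusted p = 0.0265). The call was lost without KO replicate 2 (-2.43), KO replicate 3 (-2.32) or WT replicate 2 (-1.79). Of 9 proteases that can shed such ectodomains, 0 passed in edgeR. Before adjustment (p below 0.05) 1 was higher, and so was 1 by DESeq2 and by limma voom. That gene was Mmp14, a membrane metalloproteinase, at 10.3, 11.0, 10.2 and 18.8 CPM across KO replicates 1 to 4, against 5.98, 5.29 and 2.29 CPM across WT replicates 1 to 3 (1.48, edgeR adjusted p = 0.0902).

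The enzymes that start, extend and cap O-linked chains numbered 30 tested genes. Of these 0 passed in edgeR, and before adjustment (p below 0.05) 2 were higher and 4 lower. The calls of DESeq2 were 2 higher and 1 lower, and those of limma voom 1 higher and 1 lower. The median was -0.09. Galnt6, which attaches the first sugar to serine or threonine, had the smallest p, at 46.7, 49.0, 65.1 and 78.3 CPM across KO replicates 1 to 4, against 37.5, 24.6 and 19.8 CPM across WT replicates 1 to 3 (1.13, edgeR adjusted p = 0.0575). It passed in 6 of 19 settings.

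Of 15 listed Wnt target genes, 11 were tested. In edgeR 1 was higher and 1 lower, where 2.26% of all tested genes were called in either direction. The median was 0.04, and before adjustment (p below 0.05) 2 were higher and 3 lower. DESeq2 and limma voom each called 1 higher and 1 lower. Axin2, Tcf7, Sp5 and Notum were too low to be tested, so the list says nothing on them. Jun, a transcription factor that many stimuli induce, was at 44.3, 29.5, 96.1 and 200.8 CPM across KO replicates 1 to 4, against 9.48, 11.9 and 11.0 CPM across WT replicates 1 to 3. All libraries labelled KO were above WT, but they spread widely, and KO replicate 4 held the highest value, as it did for Muc13. The log2 fold change of 3.11 (edgeR adjusted p = 0.0218) was 2.41 without KO replicate 4, and the call was lost without WT replicate 1 (3.00), WT replicate 2 (3.15) or WT replicate 3 (3.10). Ccnd1, the cyclin D1 gene, was at 11.8, 12.3, 10.1 and 4.35 CPM across KO replicates 1 to 4, against 33.0, 33.9 and 23.4 CPM across WT replicates 1 to 3 (-1.64, edgeR adjusted p = 0.0291). Its call was lost without KO replicate 2 (-1.78), KO replicate 3 (-1.67), WT replicate 1 (-1.58) or WT replicate 2 (-1.57), and with an offset for transcript length (-0.98). The 2 genes called among the Wnt targets thus moved in opposite directions.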

How the data were processed

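The deposited files give, per transcript, estimated counts that the authors obtained with Salmon 0.11.2 after cutadapt, on mm10, per the submitters' processing notes. They also hold TPM values, which the authors deposited on the same rows, and effective lengths. The name of the transcript set was not given in the sources used here. Libraries were made with the SMART-Seq v4 kit, per the labels' protocols.

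Transcripts were joined to GENCODE M21, and 111787 of 112092 per library matched. Estimated counts were summed to genes and rounded. KO was compared with WT by edgeR 4.0.16 (R 4.3.3; quasi-likelihood test, TMM scaling, filterByExpr, Benjamini-Hochberg adjustment over all tested genes, threshold 0.05). Intervals are at 95%. Adjusted p-values are from edgeR unless another tool is named. Alternatives were DESeq2 1.42.0, limma 3.58.1 voom with quality weights, RLE and upper quartile scaling, no filter, a stricter filter (at least 1 CPM in 3 libraries and 50 reads), protein-coding genes only, a length offset, male-pattern expression as a covariate, the replicate number as a block, and each library left out. The fit on libraries with male-pattern expression was added after seeing the data. Transcript shares were compared by exact permutation over libraries. The tests were checked on simulated counts.

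Members and lists were chosen with earlier results of these data known. All 9 members are named. From each related list and from the neighbours of Muc13, genes past the threshold are named, or the gene of smallest p. The 5 genes most like Muc13 follow Pearson r. Residue composition was translated from GENCODE coding sequences in place of a protein table. The labels do not say whether samples with the same replicate number were paired, and they were not treated as pairs in the reported fit.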

Additional observations from a re-analysis of the deposited data

Results flagged for a closer look

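Within the 4 libraries labelled KO, 45 quantities were examined for 1 library far from the other 3, and 5 showed it. Chance flags about 1 in 20 such groups. KO replicate 1 had 109.0 CPM of Spn, against 73.6 to 76.6 CPM in the others. KO replicate 2 had 0.0739 CPM of Muc20, which is 2 reads, against 0 in the others. Emcn-204 held 11.6% of the reads of Emcn in KO replicate 4 against 0% to 1.74%. In the same library Mmp14 stood at 18.8 CPM, against 10.2 to 11.0 CPM elsewhere. The level of B4galt1 in KO replicate 1 was 19.3 CPM, with 14.6 to 14.9 CPM in the others. Groups of 3 libraries were not examined.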

How the results depend on the processing

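Among the 9 genes, the count called higher, 0 in the reported fit, was 3 with DESeq2, 2 with limma voom, 2 with male-pattern expression as a covariate, 1 with no filter, and 0 to 2 with 1 library left out. It was 0 under the other settings, and the count called lower was 0 under all. Muc13 passed with DESeq2 (0.84), limma voom (0.70) and the covariate (0.87), with a leave-one-out range of 0.66 to 0.99. Cd34 passed with DESeq2 (1.07), limma voom (0.89), the covariate (1.10) and no filter (1.08), with a range of 0.87 to 1.24, and Selplg passed with DESeq2 (0.81). The leave-one-out range of Podxl was -0.053 to 0.41. Related list genes called higher, 1 as reported, numbered 6 with DESeq2, 7 with limma voom, 6 with the covariate, 2 with the length offset, 3 with male-pattern libraries only, 3 with no filter, 2 with the stricter filter and 0 to 3 with 1 library left out. Those called lower, 5 as reported, numbered 9 with DESeq2, 8 with limma voom and 2 to 7 with 1 library left out. Under the replicate block 2 related genes were higher, Src lost its call (-1.95, edgeR adjusted p = 0.0687), and over all genes 240 were called against 332. The deviations of samples with the same number from their group means correlated little (r of -0.05, -0.12 and -0.04). With so few samples this cannot tell whether they were paired, and the block is no test of pairing. Muc3a turned to 0.020 with male-pattern libraries and to 0.11 under the replicate block. Its leave-one-out range was -0.62 to 0.34, and that of B4galt1 -0.47 to 0.037. Shares turned for Cd164-201 in TPM (0.292 points), and with 1 library left out for Muc1-201 (-13.6 to 12.0) and Selplg-201 (-0.106 to 4.36). Over all genes 866 were called with DESeq2 (40.6% higher), 708 with limma voom (38.0%), 614 with the covariate (35.5%) and 464 with the length offset (45.9%), against 332 (26.5%). With 1 library left out the count ran from 195 to 409. The causes were not tested. With few reads, Muc1 and Muc20 are limited by depth.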
